A study of Mus musculus with 25 samples.

Results

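The 44 genes described here are the collagen genes of the mouse that the deposited count table lists: every symbol made of Col, a number, the letter a and a number, 44 of 37085 symbols. They divide into 11 fibrillar collagens, 8 collagens of basement membranes (the collagen IV chains, collagen XV and collagen XVIII) and 25 others, among them collagen VI, the collagens that sit on fibrils and the membrane-spanning types. The RNA came from hepatocytes of C57BL/6 mice with no transgene or deletion named. These cells were freed by collagenase perfusion, spun down slowly and purified by flow sorting with an unstated gate, and each library counts transcripts at their polyadenylated 3' ends. In 20 libraries the mice had eaten a NASH diet, which brings on fatty, inflamed liver disease (non-alcoholic steatohepatitis), with 4, 3, 4, 3, 3 and 3 libraries after 1, 2, 3, 4, 5 and 6 weeks. In the other 5 the mice had eaten normal diet (ND). The labels used here state neither the make-up of the diet nor the sex or age of the animals. Libraries are numbered within their group without a statement that each comes from its own animal, so p-values here measure the spread between these libraries, which may be technical.

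Collagens are secreted chains with a repeating glycine motif that wind around each other into rope-like molecules. Fibrillar collagens line up into the fibres that make a scarred liver stiff, basement membrane collagens form sheets and their edges, and the others bridge, coat or anchor these structures. In the liver, stellate cells are the best-known source of scar collagen. Sinusoidal endothelial cells are a known source of collagen IV, and hepatocytes are known to make collagen XVIII.

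Between 5281143 and 10015751 counts were obtained per library, of which 2284 to 6345 fell on collagen genes. A level in CPM is a gene's count divided by its library's total, brought to a common scale and corrected by a composition factor (TMM). Since each transcript is counted at its 3' end, levels were not divided by length. Scaling by library total alone would raise the median log2 fold change of all genes by 0.33 at week 5 and 0.30 at week 6, so changes are relative to the composition-scaled median. Hepatocyte markers were abundant: the 13 in the table summed to between 85400 and 86800 CPM at week 6 and between 108000 and 117000 CPM in ND libraries. Transcripts that mark other liver cells were also present, at levels given with the results below. In bulk RNA, fewer cells of a type and less RNA per cell cannot be told apart.

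All collagen transcripts together were a small share of the RNA, and that share was higher late in the diet. They made up 0.0766% ± 0.0141 of all counts at week 5, 0.0695% ± 0.00524 at week 6 (SD, n = 3 each) and 0.0424% ± 0.00217 in ND libraries (SD, n = 5). The lowest library of week 6 had 0.0635% and the highest ND library 0.0456%, so these groups did not overlap. Most collagen counts were of Col18a1, which encodes collagen XVIII and held 59.8% of them over the 25 libraries. Its part of the collagen CPM was 37.7% ± 6.21 at week 5 and 45.6% ± 4.43 at week 6, against 77.0% ± 7.5 in ND libraries.

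By class, the levels moved apart along the diet. Summed fibrillar collagen was 53.6 ± 21.0 CPM in ND libraries (SD, n = 5), then 73.9 ± 15.1, 101 ± 16.5, 73.5 ± 25.1, 112 ± 39.0, 189 ± 68.7 and 163 ± 15.5 CPM at weeks 1, 2, 3, 4, 5 and 6 (SD, n = 4, 3, 4, 3, 3 and 3). Other types followed the same course at lower levels, with 18.3 ± 8.20 CPM in ND libraries and 29.0, 40.7, 30.2, 57.4, 112 and 86.5 CPM at weeks 1 to 6. Basement membrane collagen hid opposite movements: its sum was 372 ± 7.34 CPM at week 6 and 398 ± 39.4 CPM in ND libraries, and with library size only it was 416 CPM at week 6 and 359 CPM in ND libraries, the other way round. Collagen IV alone stood at 116 ± 12.1 CPM at week 5, 85.8 ± 15.4 CPM at week 6 and 28.6 ± 11.5 CPM in ND libraries. These sums describe the libraries and were not tested.

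**Figure D1:**
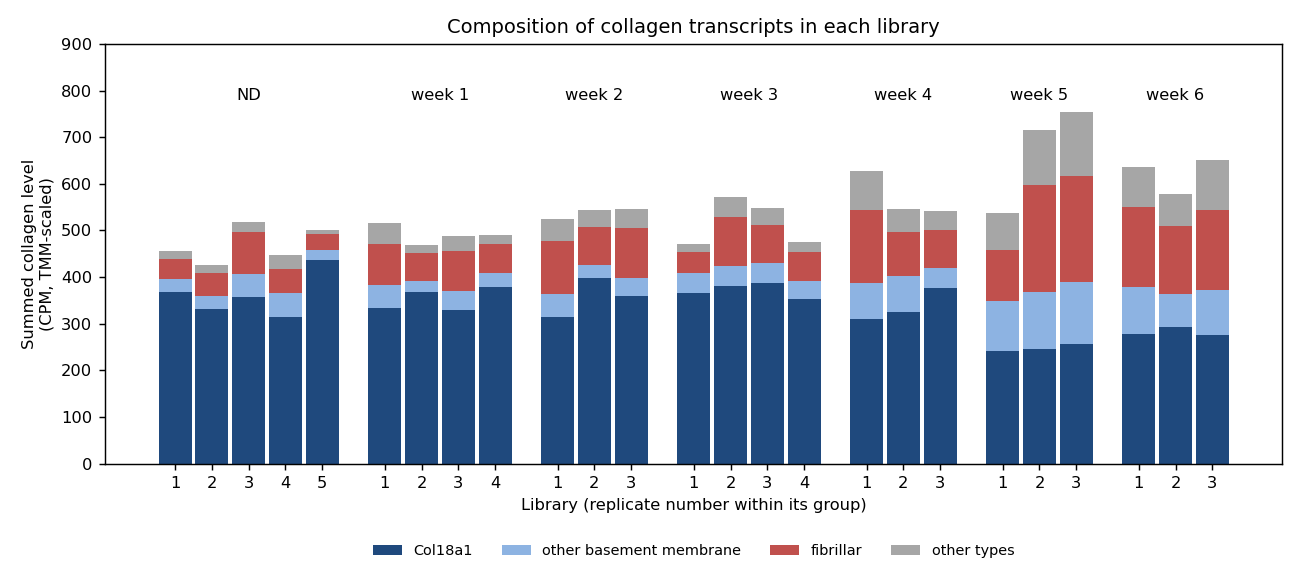
Summed collagen level of each library in CPM (composition-scaled), stacked by Col18a1, other basement membrane, fibrillar and other collagens, with libraries grouped by ND and by weeks of NASH diet. The Col18a1 part is between 242 and 293 CPM in the 6 libraries of weeks 5 and 6 and between 315 and 436 CPM in ND libraries, while the fibrillar part is taller in weeks 5 and 6.

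Of the 44 genes, 17 passed the filter on low counts and were tested with edgeR's quasi-likelihood test, where a call means a Benjamini-Hochberg adjusted p below 0.05 among all 11869 genes tested. At week 6, 13 of the 17 were called higher and 2 lower than in ND libraries, where 16.3% of all tested genes were higher and 10.5% lower. Week 5 also gave 13 higher and 2 lower, beside 19.1% and 16.3% of all tested genes. Scaled by library total alone, 15 genes were called higher and 0 lower at both weeks. The share of all tested genes under that scaling is not given here, and the shares above do not apply to it. The median log2 fold change of the 17 was 2.67 at week 5 and 2.29 at week 6, and that of all tested genes -0.05 at both. These counts cannot be read as a property of all collagens, because a gene absent from ND libraries could pass the filter only by being high on the diet. The 10 genes that reached the filter level of 1.41 CPM in at least 3 ND libraries do not have that limit, and of them 7 were higher, 2 lower and 1 not called at week 6. Each library of week 6 lay above each ND library for 12 of the 17 genes and 16.1% of all tested genes. For week 5 it was 13 genes and 20% of all tested genes.

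**Figure D2:**
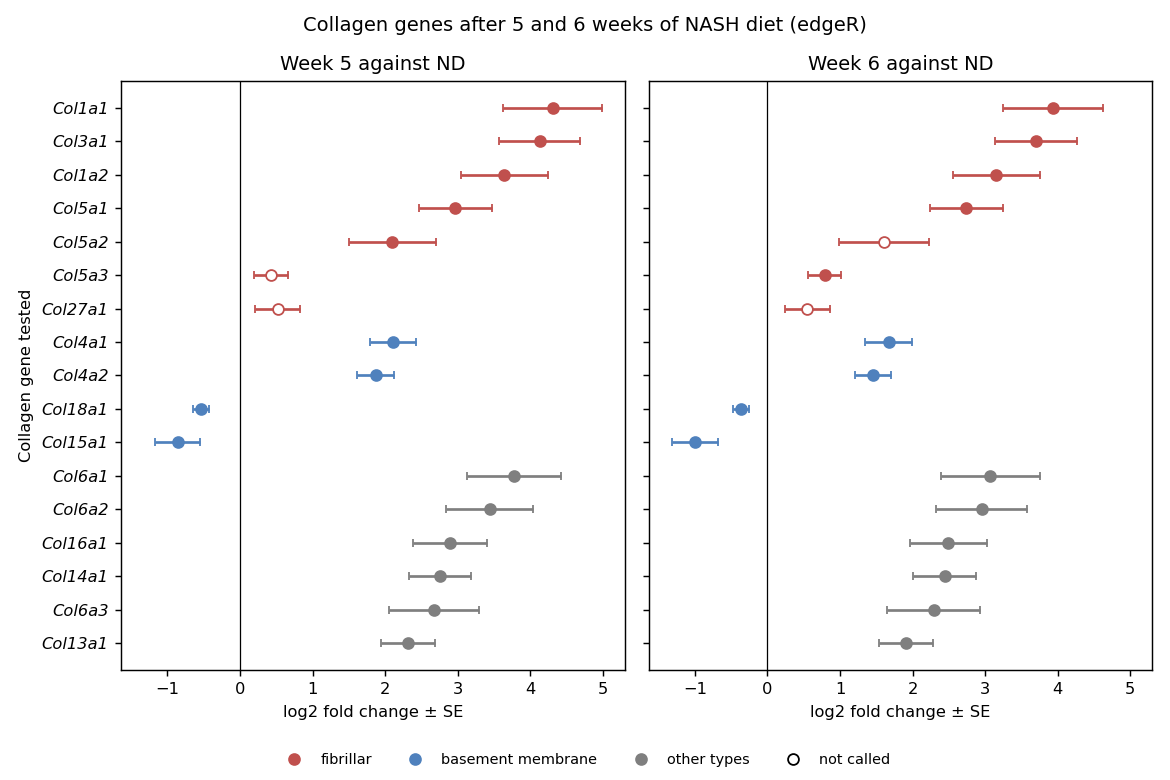
Log2 fold change against ND with its standard error for the 17 tested collagen genes at week 5 (left) and week 6 (right), by class. Filled points passed the test (edgeR, Benjamini-Hochberg adjusted p under 0.05): Col1a1 is farthest right in both panels (4.31 and 3.94), and Col18a1 and Col15a1 are the genes left of 0.

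The fibrillar collagens of scar tissue were among the genes of the family that rose most. Col1a1, which encodes the main chain of collagen I, stood at 16.6, 10.5 and 17.0 CPM in the week 6 libraries, against 1.09, 2.24, 0, 0.808 and 0.658 CPM in ND libraries. Every week 6 library was above every ND library, and the ND values rest on 28 counts in all. Col1a1 reached the filter level in only 1 ND library, so it passed the filter only through diet libraries. Its 0 in ND library 3 allows up to 0.467 CPM. The log2 fold change was 3.94 ± 0.69 (15.3-fold, edgeR, Benjamini-Hochberg adjusted p = 0.000315) at week 6 and 4.31 ± 0.68 at week 5. At week 5, library 1 had 5.54 CPM, and libraries 2 and 3 had 26.8 and 25.2 CPM. Library 1 also had the lowest stellate marker sum of that week, 532 CPM, whose part in the difference was not tested.

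The partner chain Col1a2 had 33.6, 15.8 and 39.5 CPM at week 6, against 3.99, 2.93, 2.34, 4.85 and 2.19 CPM in ND libraries. Its groups did not overlap, and the log2 fold change was 3.15 ± 0.60 (edgeR, Benjamini-Hochberg adjusted p = 0.000696). Col3a1, which encodes collagen III, the thinner fibre laid down with collagen I, had 49.6, 24.1 and 42.0 CPM at week 6, against 2.54, 3.79, 3.43, 3.10 and 1.75 CPM in ND libraries. All 3 week 6 libraries stood far above the ND range, in which no library reached 4 CPM, and the log2 fold change was 3.70 ± 0.56 (edgeR, Benjamini-Hochberg adjusted p = 0.000115). For both genes library 2 was the lowest of week 6, as it was for the stellate marker sum (506 CPM).

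The start-site regions of Col1a2 and Col3a1 are shown because their transcripts moved together while their upstream sequence differs in make-up. Both windows hold 300 bases, 250 before and 50 from the annotated start onwards, from RefSeq on GRCm38.p6, and 14 of the 17 tested genes are in that table (Col1a1, Col5a2 and Col14a1 are absent from the table). Col1a2 lies on the plus strand at chr6:4505368-4505667 and Col3a1 on the plus strand at chr1:45311288-45311587. Capitals mark the letters CCAAT on either strand.
Col1a2: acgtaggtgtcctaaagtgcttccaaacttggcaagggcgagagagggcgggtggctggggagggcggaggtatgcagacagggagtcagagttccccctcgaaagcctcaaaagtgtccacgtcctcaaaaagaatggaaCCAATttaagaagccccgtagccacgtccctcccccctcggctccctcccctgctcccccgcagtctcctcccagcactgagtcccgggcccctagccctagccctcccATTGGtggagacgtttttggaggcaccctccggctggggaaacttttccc
Col3a1: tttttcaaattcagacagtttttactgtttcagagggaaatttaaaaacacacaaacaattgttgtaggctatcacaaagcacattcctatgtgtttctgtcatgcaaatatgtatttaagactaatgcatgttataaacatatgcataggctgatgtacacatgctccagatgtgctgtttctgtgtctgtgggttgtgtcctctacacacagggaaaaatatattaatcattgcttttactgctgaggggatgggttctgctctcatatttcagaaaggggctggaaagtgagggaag
Col1a2 holds CCAAT starting at position -109 on the plus strand and, as ATTGG, at position 0, counted from 0 at the annotated start. It also holds GGGCGG at -205 and -188. Col3a1 holds neither, and has TATAAA at -117. The GC content is 61.0% in Col1a2 and 37.7% in Col3a1, against a median of 52.7% over all 32851 windows in the table. On either strand, CCAAT occurs in 37.4%, GGGCGG in 35.7% and TATAAA in 13.6% of those windows, so the matches are common and no binding is measured here.

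Collagen V regulates the thickness of collagen I fibrils, and all 3 of its chains were tested, though not against each other. Of these, Col5a1 and Col5a2 passed the filter only through diet libraries. Col5a1 had 9.70, 5.89 and 6.47 CPM at week 6, against 1.09, 0.690, 1.40, 1.62 and 0.438 CPM in ND libraries, without overlap (log2 fold change 2.74 ± 0.50, edgeR, Benjamini-Hochberg adjusted p = 0.000310). Col5a2 had 4.47, 0.718 and 3.38 CPM at week 6, against 2.18, 0.862, 0.467, 0.943 and 0.219 CPM in ND libraries. Library 2 of week 6 lay inside the ND range, and the gene was called at week 5 (2.10 ± 0.60, edgeR, Benjamini-Hochberg adjusted p = 0.00825) but not at week 6 (1.61 ± 0.62, adjusted p = 0.0577). The week 5 call was lost without week 5 library 2 (1.75, adjusted p = 0.0562). The gene passed at week 6 without ND library 1 (2.13, adjusted p = 0.0223) or without week 6 library 2 (2.05, adjusted p = 0.0155), and with library size only (1.91, adjusted p = 0.0269).

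Col5a3, the third chain of collagen V, started from a higher level and differed less. It had 21.0, 40.2 and 26.7 CPM at week 6, against 12.0, 13.1, 27.1, 15.8 and 16.2 CPM in ND libraries. Only library 2 of week 6 was above every ND library. It was called at week 6 (0.79 ± 0.23, edgeR, Benjamini-Hochberg adjusted p = 0.0126), not without that library (0.50, adjusted p = 0.148). At week 5 it was not called (0.43 ± 0.23, adjusted p = 0.164), but was without ND library 3 (0.67, adjusted p = 0.0172) and with library size only (0.77, adjusted p = 0.0142). The week 6 call was also lost without ND libraries 1 and 5 (0.65, adjusted p = 0.0809) and with only the groups compared in the fit (0.83, adjusted p = 0.0533).

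Col27a1, a fibrillar collagen best known from cartilage, had more counts than any collagen gene but Col18a1 over the 25 libraries, with a mean level of 38.3 CPM in 3' counts. It stood at 37.5, 47.8 and 36.0 CPM at week 6, against 20.0, 25.5, 54.4, 24.2 and 13.2 CPM in ND libraries. ND library 3 was the highest of these 8, and the groups overlapped. The log2 fold change of 0.55 ± 0.31 (95% interval -0.10 to 1.20) was not called at week 6 (edgeR, Benjamini-Hochberg adjusted p = 0.206), nor was 0.52 ± 0.31 at week 5 (adjusted p = 0.208). Without ND library 3 both passed, with 0.92 at week 5 (adjusted p = 0.00488) and 0.95 at week 6 (adjusted p = 0.00535), and with library size only they were 0.86 (adjusted p = 0.0390) and 0.85 (adjusted p = 0.0459).

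**Figure D3:**
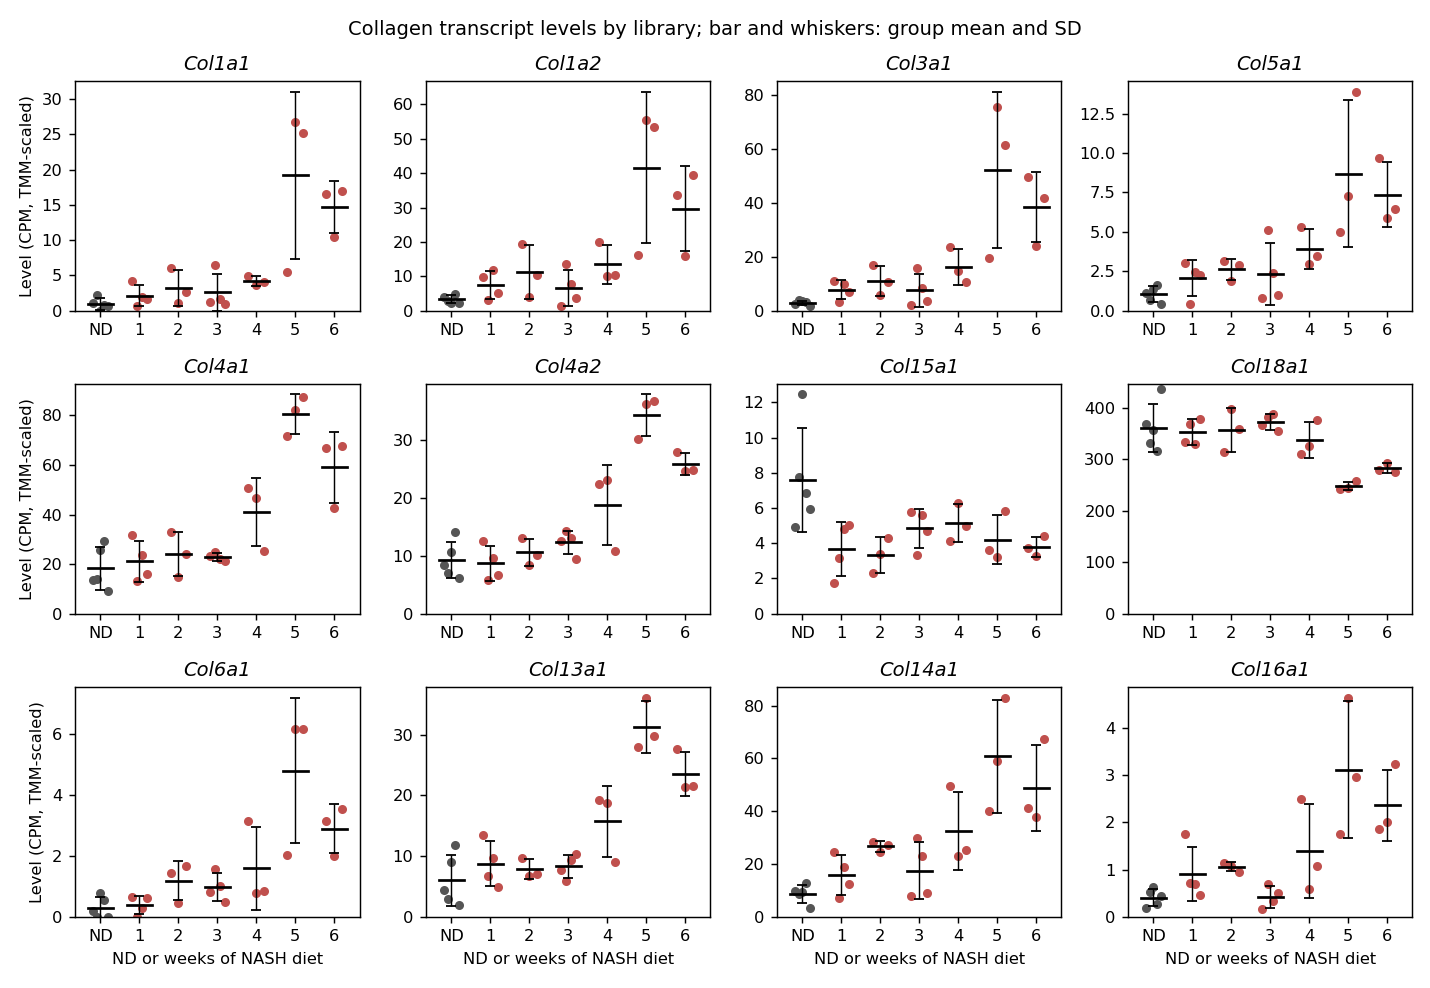
Level in CPM (composition-scaled) of 12 collagen genes in each library, for ND (grey) and for 1 to 6 weeks of NASH diet (red); horizontal bars are group means and whiskers the SD. Col1a1, Col1a2, Col3a1, Col5a1 and the collagen VI, XIII, XIV and XVI genes are highest at weeks 5 and 6, Col4a1 and Col4a2 pass the ND range from week 4 in most libraries, and Col18a1 is lower at weeks 5 and 6 than in any ND library.

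In basement membranes, Col4a1 and Col4a2 rose, and the other collagen IV genes had too few counts to test. Col4a1 and Col4a2 encode the chains of the most widespread collagen IV network, and lie head to head in the genome. Col4a1 had 66.9, 42.5 and 67.8 CPM at week 6, against 13.4, 14.1, 25.7, 29.4 and 8.99 CPM in ND libraries. Col4a2 had 27.9, 24.6 and 24.7 CPM at week 6, against 8.34, 7.07, 10.7, 14.0 and 6.14 CPM in ND libraries. Neither gene's groups overlapped. The log2 fold changes were 1.67 ± 0.32 for Col4a1 (edgeR, Benjamini-Hochberg adjusted p = 0.000700) and 1.45 ± 0.25 for Col4a2 (adjusted p = 0.000189), and 2.11 ± 0.32 and 1.87 ± 0.25 at week 5.

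The window around the start of Col4a1 and that of Col4a2 are shown because a single stretch of DNA holds both starts. In RefSeq on GRCm38.p6 the Col4a1 window lies on the minus strand at chr8:11312777-11313076 and the Col4a2 window on the plus strand at chr8:11312555-11312854. Capitals mark the 78 bases that both windows contain, each read along its own gene.
Col4a1: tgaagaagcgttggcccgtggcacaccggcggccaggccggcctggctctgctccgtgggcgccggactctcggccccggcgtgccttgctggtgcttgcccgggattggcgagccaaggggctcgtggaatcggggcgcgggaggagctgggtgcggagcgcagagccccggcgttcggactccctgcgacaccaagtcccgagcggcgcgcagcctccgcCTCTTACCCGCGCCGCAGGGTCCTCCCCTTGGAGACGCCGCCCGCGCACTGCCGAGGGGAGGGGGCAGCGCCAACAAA
Col4a2: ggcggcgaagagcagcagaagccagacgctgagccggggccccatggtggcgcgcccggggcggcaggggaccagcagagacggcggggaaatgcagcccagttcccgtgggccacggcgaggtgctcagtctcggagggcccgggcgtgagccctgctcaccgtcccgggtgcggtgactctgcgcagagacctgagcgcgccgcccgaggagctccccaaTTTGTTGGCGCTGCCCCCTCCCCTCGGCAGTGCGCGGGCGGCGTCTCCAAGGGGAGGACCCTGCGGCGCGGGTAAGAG
The annotated starts are 21 bases apart on opposite strands. GC content is 74.0% in the Col4a1 window and 73.7% in the Col4a2 window. Counts of Col4a1 over Col4a2 were 2.30 at week 6 (1.73 to 2.74 in the 3 libraries) and 2.01 in ND libraries (1.46 to 2.39), and 2.24 over all 25, so the pair kept a ratio within 1.46 to 2.74 in every library. An antisense gene, Gm15418, covers the 3' end of Col4a1, and no source used here says whether the counting used strand, so its reads could be counted with Col4a1.

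The other basement membrane genes, the related collagens XV and XVIII, were lower. Col18a1, whose protein releases the fragment endostatin, had 279, 293 and 275 CPM at week 6, against 368, 331, 357, 315 and 436 CPM in ND libraries. At week 5 it had 242, 245 and 257 CPM, so in composition-scaled CPM all 6 late libraries were below all ND libraries. Per library total alone the groups overlapped: Col18a1 had 2563 of 7958216 counts in week 6 library 1 and 2340 of 7985100 counts in ND library 4. The log2 fold change was -0.54 ± 0.11 at week 5 (edgeR, Benjamini-Hochberg adjusted p = 0.000398) and -0.36 ± 0.11 at week 6 (adjusted p = 0.0155). With library size only these were -0.20 (adjusted p = 0.0859) and -0.05 (adjusted p = 0.745), so the fall is one relative to the composition-scaled median. The week 6 call was also lost without ND library 5 (-0.26, adjusted p = 0.0750), without week 6 library 1 (-0.35, adjusted p = 0.0559) or without week 6 library 3 (-0.34, adjusted p = 0.0560). It was lost too without ND libraries 1 and 5 (-0.24, adjusted p = 0.127) and with only the groups compared (-0.32, adjusted p = 0.130). The 3' end of Col18a1 is covered on the opposite strand by Slc19a1, a folate transporter gene, which itself was counted at 4.40 ± 0.601 CPM at week 6 and 4.34 ± 1.39 CPM in ND libraries.

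Col15a1 had 3.71, 3.30 and 4.41 CPM at week 6, against 4.90, 7.76, 12.5, 6.87 and 5.92 CPM in ND libraries. The week 6 libraries were all below the ND range, of which library 3 was the highest. Its log2 fold change was -1.0 ± 0.32 at week 6 (edgeR, Benjamini-Hochberg adjusted p = 0.0222) and -0.86 ± 0.31 at week 5 (adjusted p = 0.0350), when the groups overlapped. With library size only neither was called (-0.69, adjusted p = 0.103, and -0.52, adjusted p = 0.200). Leaving out ND library 3, or week 6 library 1 or 2, ended the week 6 call (-0.74, -0.98 and -0.92, adjusted p = 0.0818, 0.0721 and 0.0754). At week 5 the call ended without ND library 2 or 3 or week 5 library 1 or 2 (-0.85, -0.60, -0.76 and -0.71, adjusted p = 0.0517, 0.130, 0.122 and 0.148), with only the groups compared (-0.81, adjusted p = 0.0666) and with a filter of 5 CPM in 3 libraries (-0.81, adjusted p = 0.0512). Early in the diet the gene was at similar levels: 2.29, 3.4 and 4.31 CPM at week 2, all below the ND range. Its log2 fold changes of -1.04 ± 0.30 at week 1 and -1.18 ± 0.33 at week 2 were not called (adjusted p = 0.0980 and 0.106).

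Among the other types, all 6 tested genes were called higher at weeks 5 and 6, beside 19.1% and 16.3% of all tested genes. Of the 6, the collagen VI genes and Col16a1 passed the filter only through diet libraries, and Col13a1 and Col14a1 do not have that limit. Col14a1 encodes collagen XIV, which coats collagen I fibrils. It had 41.3, 37.8 and 67.3 CPM at week 6, against 9.79, 8.45, 9.35, 12.9 and 3.51 CPM in ND libraries (log2 fold change 2.44 ± 0.43, edgeR, Benjamini-Hochberg adjusted p = 0.000371). Col13a1, a collagen that spans the cell membrane, had 27.7, 21.3 and 21.5 CPM at week 6, against 4.35, 2.93, 9.03, 11.8 and 1.97 CPM in ND libraries (1.91 ± 0.37, adjusted p = 0.000691). Both genes were present in every ND library and their groups did not overlap at week 6.

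Collagen VI makes beaded filaments around cells, and its 3 common chains were scarce in ND libraries. Col6a1 had 3.16, 2.01 and 3.53 CPM at week 6, against 0.181, 0, 0.779, 0.539 and 0 CPM in ND libraries. Col6a2 had 3.05, 1.44 and 2.79 CPM at week 6, against 0.181, 0.517, 0.623, 0.135 and 0 CPM in ND libraries. Col6a3 had 5.02, 2.87 and 4.41 CPM at week 6, against 1.09, 0.517, 1.25, 0.943 and 0.219 CPM in ND libraries. None of the 3 overlapped between these groups, and ND libraries held 10, 9 and 25 counts of Col6a1, Col6a2 and Col6a3. Log2 fold changes at week 6 were 3.07 ± 0.68, 2.95 ± 0.63 and 2.29 ± 0.64 (edgeR, Benjamini-Hochberg adjusted p = 0.00158, 0.00104 and 0.00924). Col16a1, another fibril-associated collagen, had 1.85, 2.01 and 3.23 CPM at week 6, against 0.181, 0.517, 0.623, 0.269 and 0.438 CPM in ND libraries, again without overlap (2.49 ± 0.53, adjusted p = 0.00102). These 4 genes are among the 7 that passed the filter without reaching its level in 3 ND libraries, as were Col1a1, Col5a1 and Col5a2.

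The remaining 27 collagen genes had too few counts to test. Of these, 14 had at least 10 counts over the 25 libraries: Col12a1 (128), Col4a3 (96), Col4a5 (70), Col11a2 (60), Col23a1 (47), Col8a1 (40), Col4a4 (39), Col20a1 (38), Col25a1 (28), Col7a1 (17), Col24a1 (14), Col6a6 (13), Col10a1 (11) and Col17a1 (11). Another 7 had 1 to 9 counts. The cartilage collagens Col2a1, Col9a1 and Col9a2 and the genes Col6a5, Col26a1 and Col28a1 had 0, which over the pooled 181035735 counts allows up to 0.0166 CPM. That limit covers counting error only. With no filter, the 21 of them with any count could be tested, and edgeR called none in any of the 8 comparisons, the smallest adjusted p being 0.0596 for Col4a4 at week 5.

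In the first 3 weeks no collagen gene passed the test. The counts of called genes at weeks 1, 2 and 3 were 0 of 17 in edgeR, where 1.2%, 0.885% and 0.851% of all tested genes were called in either direction. At an unadjusted p under 0.05 there were 2, 9 and 3 of 17, of which 1, 8 and 2 were higher. The share of all tested genes at that threshold was not counted, so these numbers are not a result about the collagens. DESeq2 called 1, 2 and 0 collagen genes, beside 251 and 190 of all genes at weeks 1 and 2. Limma voom called 0 collagen genes in each week. Median log2 fold changes of the 17 were 0.40, 0.90 and 0.38, and those of all tested genes 0.02, 0 and 0.02. At week 2, each library lay above each ND library for Col3a1, Col5a1, Col14a1 and Col16a1, 4 of 17 beside 3.13% of all tested genes. Of these, Col5a1 and Col16a1 passed the filter only through diet libraries. Col15a1 lay below every ND library that week.

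At week 4, 8 collagen genes were called higher and 0 lower: Col1a2, Col3a1, Col5a1, Col4a1, Col4a2, Col6a2, Col13a1 and Col14a1. Of all tested genes 5.43% were higher and 2.86% lower, and 6.89% had every week 4 library above every ND library. That held for 8 collagen genes too, partly different ones: Col1a1, Col1a2, Col3a1, Col5a1, Col6a1, Col6a2, Col6a3 and Col14a1. Col1a1, Col5a1 and the collagen VI genes passed the filter only through diet libraries, so neither count of 8 can be read against these shares alone. Of the 10 genes that reached the filter level in at least 3 ND libraries, 6 were called higher, 0 lower and 4 not called at week 4. Col3a1 had 23.6, 14.8 and 10.5 CPM at week 4, against the ND range of 1.75 to 3.79 CPM (log2 fold change 2.45 ± 0.58, edgeR, Benjamini-Hochberg adjusted p = 0.0164). Col4a1 had 50.8, 46.6 and 25.3 CPM, and library 3 lay inside the ND range of 8.99 to 29.4 CPM (1.14 ± 0.33, adjusted p = 0.0360). Week 4 library 1 was the highest of its week for each of the 7 tested fibrillar genes. The week 4 count was 0 without that library, 4 without week 4 library 2, 4 without ND library 1, 2 or 5, and 0 without ND libraries 1 and 5 together. Calls among all genes were fewer in these fits too: 155, 293, 421, 632, 554 and 198 in the same order. With all libraries, 644 genes were called higher and 339 lower.

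Along the diet itself, leaving ND out of the contrast, 14 of the 17 genes had a called upward slope over weeks 1 to 6 and 1 a downward slope, beside 18.9% and 14.9% of all tested genes. The steepest was Col1a1, with 0.64 ± 0.11 log2 units per week (edgeR, Benjamini-Hochberg adjusted p = 0.000207), followed by Col6a1 with 0.60 ± 0.12 and Col3a1 with 0.56 ± 0.09. Col18a1 had the downward slope (-0.09 ± 0.02, adjusted p = 0.000507). Slopes of Col15a1 (0.04 ± 0.06) and Col27a1 (0 ± 0.06) were not called. Between week 6 and week 1, 12 collagen genes were higher and 0 lower, beside 11.5% of all tested genes higher. Col1a1 had a log2 fold change of 2.81 ± 0.66 there and Col4a2 one of 1.58 ± 0.27 (adjusted p = 0.00690 and 0.000805). That count of 12 became 7 without week 1 library 2, week 1 library 4 or week 6 library 1, beside 1279, 1232 and 1227 of all genes. Both the slope count and the count of 12 include genes that passed the filter only through diet libraries, Col1a1 and Col6a1 among them. All 7 such genes had a called upward slope, so neither count can be read as a property of all collagens.

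The balance within collagen I and between collagens I and III was described by ratios of counts. Col1a2 over Col1a1 was 2.01 at week 6 (1.51 to 2.32 in the 3 libraries) and 3.57 over the pooled ND libraries, where Col1a1 had 28 counts. Col3a1 over Col1a2 was 1.32 at week 6 (1.06 to 1.53) and 0.890 in ND libraries (0.636 to 1.47). Library values of both ratios overlapped between week 6 and ND. Col1a2 over Col1a1 was 1.31 in ND library 2 and 6 in ND library 4, and ND library 3 had no Col1a1 count. Neither ratio was tested.

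Genes that process, cross-link, degrade or sense collagen were counted from lists chosen by function, and counts can be read beside the percentages of all tested genes above. As for the collagens, genes scarce in ND libraries could pass the filter only through the diet libraries, so each list's count is also given for the genes that reached the filter level in 3 ND libraries. Of 31 genes for synthesis and cross-linking, 21 were tested, and 9 were higher and 1 lower at week 6 (11 and 2 at week 5), with a median log2 fold change of 0.44. Of the 14 that reached the filter level in ND libraries, 6 were higher and 1 lower. Adamts2 and Loxl1, described below, are among the 7 that did not reach it. The list's summed level was lower, at 1100 to 1230 CPM at week 6 and 1280 to 1390 CPM in ND libraries, without overlap. Its gene with the highest level in ND libraries, P4hb, a prolyl hydroxylase subunit named here after its values were seen, averaged 554 ± 71.6 CPM at week 6 and 662 ± 67.6 CPM in ND libraries and was not called (-0.25 ± 0.13), and Mia3, needed to export collagen from the endoplasmic reticulum, was the gene called lower (-0.43 ± 0.13). Serpinh1, the chaperone of collagen folding, stood at 8.56 ± 4.58 CPM at week 6 (SD, n = 3) and 1.78 ± 1.31 CPM in ND libraries (SD, n = 5; 2.19 ± 0.47, edgeR, Benjamini-Hochberg adjusted p = 0.00138). The lysyl oxidase gene Loxl2, which cross-links collagen and is also in the list of myofibroblast genes, averaged 8.47 ± 4.00 CPM at week 6 and 1.74 ± 0.770 CPM in ND libraries (2.22 ± 0.38, adjusted p = 0.000150). Adamts2, which trims the amino end of fibrillar procollagens, averaged 3.33 ± 0.909 CPM at week 6 and 0.441 ± 0.295 CPM in ND libraries (2.86 ± 0.57, adjusted p = 0.000556). Loxl1 had 38 counts at week 6 and 2 in ND libraries, a ratio per total counts of 30.4 with a 95% counting interval of 7.86 to 260.

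Among 17 genes of collagen breakdown, 9 were tested, and 5 were higher and 1 lower at week 6 (6 and 1 at week 5), with a median of 0.61. Of the 6 that reached the filter level in ND libraries, 3 were higher and 1 lower, and Mmp13, Timp3 and Mmp2 are the genes that did not reach it. Mmp13, an interstitial collagenase, averaged 7.73 ± 1.00 CPM at week 6 and 0.152 ± 0.147 CPM, or 5 counts, in ND libraries, so that its fold is uncertain (log2 fold change 5.40 ± 0.73, edgeR, Benjamini-Hochberg adjusted p = 1.97e-05). Of the inhibitors of such enzymes, Timp2 and Timp3 were tested and both rose, with Timp2 at 33.8 ± 2.35 CPM at week 6 and 6.61 ± 3.25 CPM in ND libraries (2.31 ± 0.34, adjusted p = 7.31e-05). Timp3 averaged 4.31 ± 1.15 CPM at week 6 and 0.692 ± 0.310 CPM in ND libraries (2.58 ± 0.37, adjusted p = 3.09e-05). The lysosomal protease gene Ctsb averaged 475 ± 42.5 CPM at week 6 and 328 ± 26.8 CPM in ND libraries (0.53 ± 0.12, adjusted p = 0.00156).

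Of 13 collagen receptor genes, 7 were tested, and 4 were higher and 1 lower at week 6 (6 and 1 at week 5), with a median of 1.16. Of the 4 that reached the filter level in ND libraries, 2 were higher and 1 lower, and Ddr2, Adgrg1 and Ddr1 are the genes that did not reach it. Ddr2, a receptor kinase for fibrillar collagen, averaged 6.69 ± 1.52 CPM at week 6 and 1.16 ± 0.553 CPM in ND libraries (log2 fold change 2.48 ± 0.41, edgeR, Benjamini-Hochberg adjusted p = 0.000131). Lair1, an inhibitory collagen receptor of leukocytes, averaged 13.4 ± 3.69 CPM at week 6 and 3.71 ± 1.87 CPM in ND libraries (1.82 ± 0.34, adjusted p = 0.000371). Adgrg1, an adhesion receptor that binds collagen III, was higher too (1.80 ± 0.37, adjusted p = 0.000729). Antxr2, which takes up collagen VI, was lower, with 22.2 ± 8.90 CPM at week 6 and 40.7 ± 6.47 CPM in ND libraries (-0.87 ± 0.21, adjusted p = 0.00332).

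Markers of other liver cells rose in the same weeks as the collagens, and their part in the collagen changes was not tested. The 18 stellate markers, a list without collagens, summed to between 532 and 1040 CPM at week 5, between 506 and 842 CPM at week 6 and between 83.3 and 179 CPM in ND libraries. None of the 18 was at 0 in any of these groups, and 17 were called higher at week 6, with a median log2 fold change of 2.16, among them all 11 that reached the filter level in 3 ND libraries. Examples from the whole list are Cygb (2.84 ± 0.42), Lrat (2.34 ± 0.36), Pdgfra (2.66 ± 0.44) and Lhx2 (2.66 ± 0.47). Pdgfra and Lhx2 did not reach that level in 3 ND libraries. Of 13 genes of myofibroblast activation, 9 were tested and called higher at week 6 (median 2.22), but 6 of these, Tagln and Postn among them, passed the filter only through diet libraries. The other 3, Sparc, Loxl2 and Spp1, reached its level in ND libraries. The summed level of the 13 was 213 to 274 CPM at week 6 and 28.9 to 92.0 CPM in ND libraries. Cthrc1 was at 0 in both groups and Cnn1 at week 6.

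The sums of the 18 sinusoidal endothelial markers were 2000 to 2460 CPM at week 6 and 281 to 1090 CPM in ND libraries. Those of the 15 Kupffer cell markers were 1690 to 1950 CPM at week 6 and 192 to 724 CPM in ND libraries, of which libraries 1 and 5 were lowest in both lists. None of either list was at 0, and 18 and 14 were higher at week 6 with medians of 1.88 and 2.01. The first called by p were Stab2, Eng, Egfl7 and Tek of endothelium, and Slc40a1, Clec1b, Timd4 and Clec4f of Kupffer cells. Portal fibroblast and mesothelial markers stayed near the floor, at 4.6 to 5.73 CPM for 14 genes at week 6 and 2.07 to 3.58 CPM in ND libraries. Eln, Mfap4, Msln and Upk1b were at 0 at week 6, and 8 of the 14 in ND libraries. Of its 2 tested markers 1 was higher (Gpm6a, 2.13 ± 0.77), which passed the filter only through diet libraries, as did Bicc1 of the cholangiocyte list. Cholangiocyte markers summed to 49.9 to 59.2 CPM at week 6 and 43.8 to 68.9 CPM in ND libraries, and 2 of 4 tested were higher, Bicc1 and Spp1, of which Spp1 is also in the myofibroblast list. Ggt1 was at 0 in both groups, and Krt7 was at 0 in ND libraries. Of the 13 hepatocyte markers 9 were lower (median -0.53), with Cps1, Serpina1a, Ttr and Pck1 first by p.

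**Figure D4:**
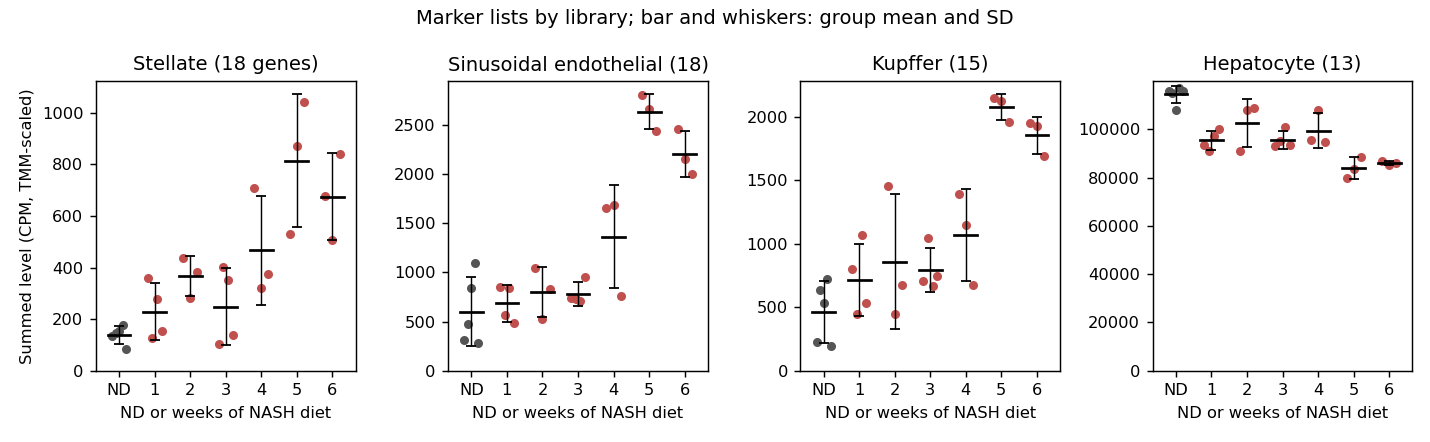
Summed level in CPM (composition-scaled) of 4 marker lists in each library, for ND (grey) and for 1 to 6 weeks of NASH diet (red); bars are group means and whiskers the SD. The stellate, endothelial and Kupffer sums of weeks 5 and 6 lie above every ND library, and the hepatocyte sums of those weeks below every ND library.

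The collagens were also set against stellate markers of the same library, as the log2 level of 5 genes minus the mean log2 level of the 18 markers (log2 CPM, prior count 2). The 5 genes were chosen with their changes known, so the values are a description and no p is given. Col3a1 exceeded the marker mean by 1.38 ± 0.45 log2 units in weeks 5 and 6 (SD, n = 6) and by -0.04 ± 0.21 in ND libraries (SD, n = 5). All 6 late libraries were above all ND libraries. Col1a2 stood at 1.02 ± 0.45 in weeks 5 and 6 and 0.09 ± 0.40 in ND libraries, and 5 of 6 late libraries were above all ND libraries. Col1a1 stood at -0.05 ± 0.54 in weeks 5 and 6. Its ND mean of -1.69 ± 1.28 rests on 28 counts and on 1 library with 0, so the size of that difference is uncertain.

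Relative to the same markers, the collagen IV genes were not higher late in the diet. Col4a2 stood at 0.92 ± 0.26 in weeks 5 and 6 and 1.52 ± 0.28 in ND libraries, a difference of -0.59, and the groups overlapped. Col4a1 stood at 2.12 ± 0.22 in weeks 5 and 6 and 2.41 ± 0.37 in ND libraries, also with overlap. With sinusoidal endothelial markers in place of the stellate ones, the differences of Col1a2, Col3a1 and Col4a2 between weeks 5 and 6 and ND were 0.98, 1.47 and -0.55.

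**Figure D5:**
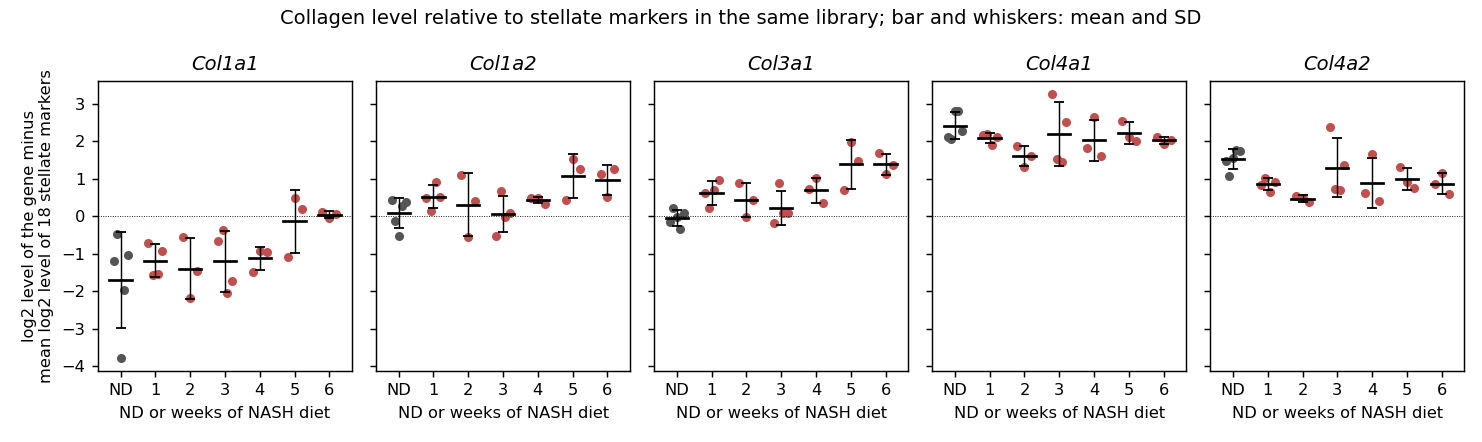
Log2 level of Col1a1, Col1a2, Col3a1, Col4a1 and Col4a2 minus the mean log2 level of 18 stellate markers in the same library, for ND (grey) and for 1 to 6 weeks of NASH diet (red); bars are means and whiskers the SD. Col3a1 lies between 0.69 and 1.98 in weeks 5 and 6 and between -0.33 and 0.23 in ND libraries, and Col1a1 of ND library 3, which had 0 counts, is the lowest point at -3.77.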

How the data were processed

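Per the submitters' processing notes, reads of the 3' end libraries were handled with FastQC, cutadapt and STAR 2.7.1a on GRCm39; no source used here names the counter, its annotation or its use of strand. The deposited table holds whole-number counts by gene symbol. Its diet columns are named WD where the sample titles say NASH, and they were matched to samples by week and number. CPM were computed here from those counts with TMM factors. No column belonged to other series.

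Tests used edgeR 4.0.16 (R 4.3.3, limma 3.58.1): filterByExpr by group, 1 robust quasi-likelihood model of 7 groups and 25 libraries, Benjamini-Hochberg adjustment over 11869 genes, called below 0.05; ± after a log2 fold change is its standard error. The scripts were tested on simulated data. Ratios to stellate markers used log2 CPM (prior count 2).

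The genes, the lists of markers and pathways and the 5 ratio genes were chosen with earlier results of these data known. All 17 tested collagen genes are named with values, untested ones from 10 counts up by count, and in other lists up to 4 called genes by p at week 6. Alternatives were library size only, no filter and a stricter one (5 CPM in 3 libraries), a replicate block, only the groups compared, DESeq2 1.42.0, limma voom, leaving out single libraries or ND libraries 1 and 5, other priors (0.5) and other denominators. Promoter windows come from RefSeq on GRCm38.p6, and no other coordinates are given.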

Additional observations from a re-analysis of the deposited data

Results flagged for a closer look

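In groups of 4 or 5 libraries, 60 sets of collagen levels were searched for a single library far from the rest, and 3 had one; chance gives about 1 in 20. Col1a1 had 6.5 CPM in week 3 library 2, where the nearest other week 3 library had 1.69 CPM. Col5a2 had 2.63 CPM in the same library, and the nearest other had 0.677 CPM. That library also had the highest stellate marker sum of week 3, 403 CPM, with 104, 351 and 138 CPM in libraries 1, 3 and 4, and its part in these values was not tested. Col5a3 had 27.1 CPM in ND library 3, where the nearest other ND library had 16.2 CPM.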

How the results depend on the processing

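The count of 8 collagen genes called at week 4 became 4 with no filter, 4 with only the groups compared, 5 with limma voom, 0 with the replicate block and 0 without ND libraries 1 and 5. In that order, 38, 14, 17, 17 and 17 collagen genes were tested. Calls among all genes were 670, 243, 910, 335 and 198, against 644 higher and 339 lower in the main fit. The collagen count was 7 with the stricter filter, 9 with DESeq2's size factors, 10 with library size only and 11 with DESeq2. Calls among all genes in those 4 settings are not given here. Leaving out single libraries gave 0 to 11 at week 4, 13 to 16 at weeks 5 and 6 (15 with all libraries), 7 to 13 for week 6 against week 1, and 0 to 1 at week 2. With only the groups compared, week 2 had 2 calls, beside 58 of all genes. With DESeq2 week 1 had 1 and week 2 had 2, beside 251 and 190 of all genes. The causes were not tested. For single genes near 0 the sign turned. Col18a1 at week 4 was 0.06 with library size only and 0.01 without ND libraries 1 and 5. Col15a1 at week 6 against week 1 was 0 with no filter and -0.19 to 0.21 without single libraries. The slope of Col27a1 was 0 with no filter, -0.01 with the block, 0 without the 3 week 4 libraries and -0.02 to 0.02 without single libraries. Relative to stellate markers, the difference of Col4a1 (-0.29) was -0.48 with a prior count of 0.5, -0.43 without ND libraries 1 and 5 and -0.38 to -0.19 without single libraries. That of Col4a2 (-0.59) was -0.43 over Lrat, Reln, Des and Dcn. Over endothelial markers, differences were 1.69, 0.98, 1.47 and -0.55 for Col1a1, Col1a2, Col3a1 and Col4a2. Week 6 levels with library size only were 183 CPM for fibrillar and 416 CPM for basement membrane collagen. With Col15a1 and Col18a1 moved to the other types, basement membrane levels were 85.8 CPM at week 6 and 28.6 CPM in ND libraries, and other types 373 CPM at week 6 and 387 CPM in ND libraries. Libraries of 1 number share only that number: of 66 such pairs across groups, 14 had deviations correlated over 0.1 (range -0.44 to 0.41). The median correlation was -0.01 for these pairs and 0 for pairs with different numbers. Under the block, Col18a1 (-0.29, adjusted p = 0.0553) and Col6a3 (1.86, adjusted p = 0.0598) lost their week 6 calls in edgeR, which left 13 of 15. Low counts limit the collagen VI genes, Col16a1 and Col1a1 in ND libraries, and all 27 untested genes.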
